A study of Caenorhabditis elegans with 24 samples.

Results

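The genes described here encode the enzymes that worms use to modify and clear foreign compounds and many of their own lipids and hormones: cytochrome P450s (named cyp-), UDP-glucuronosyltransferases (ugt-) and glutathione transferases (gst-). They were chosen by name, as every gene in the RNA-seq count table whose WormBase symbol is cyp-, ugt- or gst- followed by a number, with 20 or more reads in at least 1 of the 8 libraries. Of 184 such genes in the table, 142 reached this minimum: 52 of 74 cyp genes, 58 of 67 ugt genes and 32 of 43 gst genes. They are 142 of the 14667 genes that passed the same minimum in a table of 46508 genes. The 42 genes below the minimum were not analysed. Just below it were *cyp-35B1*, with at most 18 reads in a library, and *cyp-33C12*, with at most 17, and just inside it were *gst-21*, *gst-23* and *cyp-37B1*, each with 20. In every library, 99 of the 142 genes had 20 reads or more.

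SET-9 and SET-26 are closely related proteins with a PHD and a SET domain, and the study asked what their loss does to gene expression. RNA was sequenced from whole, synchronized *Caenorhabditis elegans* at the L4 larval stage, after removal of ribosomal RNA, in 4 genotypes with 2 libraries each. N2 was the wild-type strain. The *set-9* worms carried the allele rw5, a small deletion made with CRISPR that causes a premature stop, and the *set-26* worms carried tm2467, a larger deletion that also causes one. The *set-9 set-26* double mutant carried both alleles. The study kept the double mutant balanced over the nT1 translocation and used several generations of it, and the labels do not give the generation of these libraries. Whole worms were pooled, so that fewer cells of a type and less RNA per cell cannot be told apart.

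The 3 families act in sequence. P450s use heme iron and electrons passed on by the reductase EMB-8 to insert oxygen into fatty acids, sterols and foreign compounds. UGTs then join a sugar, taken from a UDP-sugar, to the oxidized product, and glutathione transferases join reactive products to glutathione. The conjugates are carried out of the cell by ABC transporters of the PGP and MRP families. In *C. elegans* much of this metabolism takes place in the intestine, and the regulators known to control parts of it include SKN-1, DAF-16, the nuclear receptors NHR-8, NHR-49 and NHR-86, the aryl hydrocarbon receptor AHR-1 and the intestinal GATA factor ELT-2.

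The libraries held between 16363189 and 26187811 reads on genes, of which the 142 genes took between 0.189% and 0.223%. Levels are given in CPM, the reads of a gene per 1000000 reads of the library, scaled by edgeR's TMM method, and 3 reads corresponded to between 0.118 and 0.195 CPM. Within a genotype, the 142 genes differed between the 2 libraries by a median of 0.25 to 0.32 on the log2 scale, against 0.21 to 0.26 for all 14667 genes. In the double mutant, 39 of the 142 genes were higher in replicate 2 than in replicate 1, with a median difference of −0.18, and 5 of 32 gst genes were. The *set-9* transcript, which checks the *set-9* labels, stood at 90.4 and 91.4 CPM in N2, 46 and 39.9 for *set-9*, 115 and 107 in *set-26*, and 30.6 and 33 in the double mutant. The paper describes *set-9* and *set-26* as very similar in sequence, so reads may be shared between them, which was not examined. The *set-26* labels were not checked in this way. Differences were tested with edgeR's quasi-likelihood test on all 8 libraries at a 5% false discovery rate, with p-values adjusted over the 14667 genes, and "called" means past that rate. Across the 7 comparisons made, 49 of the 142 genes (34.5%) were called at least once, against 30% of all tested genes, and 22 (15.5%, against 11.5%) were called in a mutant against N2. Nothing in the labels says that the 2 libraries of a genotype came from separate cultures, so that the p-values measure the spread between these libraries, which may be technical.

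The genes are clustered in the genome. On the WBcel235 assembly, 66 of the 142 genes (46.5%) lay on chromosome V, which holds 19.7% of the tested genes, and 6 (4.23%) lay on chromosome I, which holds 16.4%. Chromosome V held 34 of the 58 ugt genes and 26 of the 52 cyp genes, and chromosome II held 17 of the 32 gst genes. Neighbouring genes less than 10 kb apart formed 23 arrays with 68 of the genes. The largest array, *gst-20*, *gst-24*, *gst-15*, *gst-14*, *gst-12* and *gst-16* (chrII:13608154-13624440), held 6. Because copies can share reads, exons were cut into overlapping stretches of 50 bases, and these were looked up in the whole genome. For 104 genes no stretch occurred elsewhere. For 15 genes 10% or more did, among them *ugt-19* (13.2%), *gst-4* (11.8%), *gst-10* (26.2%) and *ugt-39* (28.5%), so that their counts are less certain. The exons of 38 genes overlapped those of another gene, and whether the counting used strand is not given in the sources used here.

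Glutathione transferases and UGTs were the more abundant families. Per kilobase of exon, averaged over the 8 libraries, the median level was 6.18 CPM for gst genes, 5.66 for ugt genes and 2.47 for cyp genes, and 3.65 for all 142, against 7.7 for the 14493 tested genes with an exon length. The highest was *gst-1*, a pi-class transferase known from dopamine neurons, at 263 CPM per kilobase. It was followed among gst genes by *gst-27* (93.9), *gst-42* (64.6), which encodes the maleylacetoacetate isomerase of tyrosine breakdown, *gst-26* (60) and *gst-10* (53.2), whose product conjugates the lipid peroxidation product hydroxynonenal. Among ugt genes the highest per kilobase were *ugt-22* (86.4), *ugt-62* (42.3), *ugt-47* (38.8), *ugt-12* (37.8) and *ugt-58* (34.3). Among cyp genes they were *cyp-35C1* (30.9), *cyp-29A2* (23.9), *cyp-35A2* (19.8), *cyp-33C8* (16.8) and *cyp-43A1* (11.1). The *cyp-35* enzymes are induced by foreign compounds in the intestine. Of these 15 genes, *gst-1*, *gst-27*, *gst-42*, *gst-26*, *ugt-22*, *ugt-47*, *cyp-29A2* and *cyp-35A2* were called in none of the 7 comparisons. For *gst-1* the libraries read 227 and 185 CPM in N2, 215 and 185 for *set-9*, 198 and 180 in *set-26* and 226 and 162 in the double mutant, so the 4 genotypes overlapped.

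**Figure D1:**
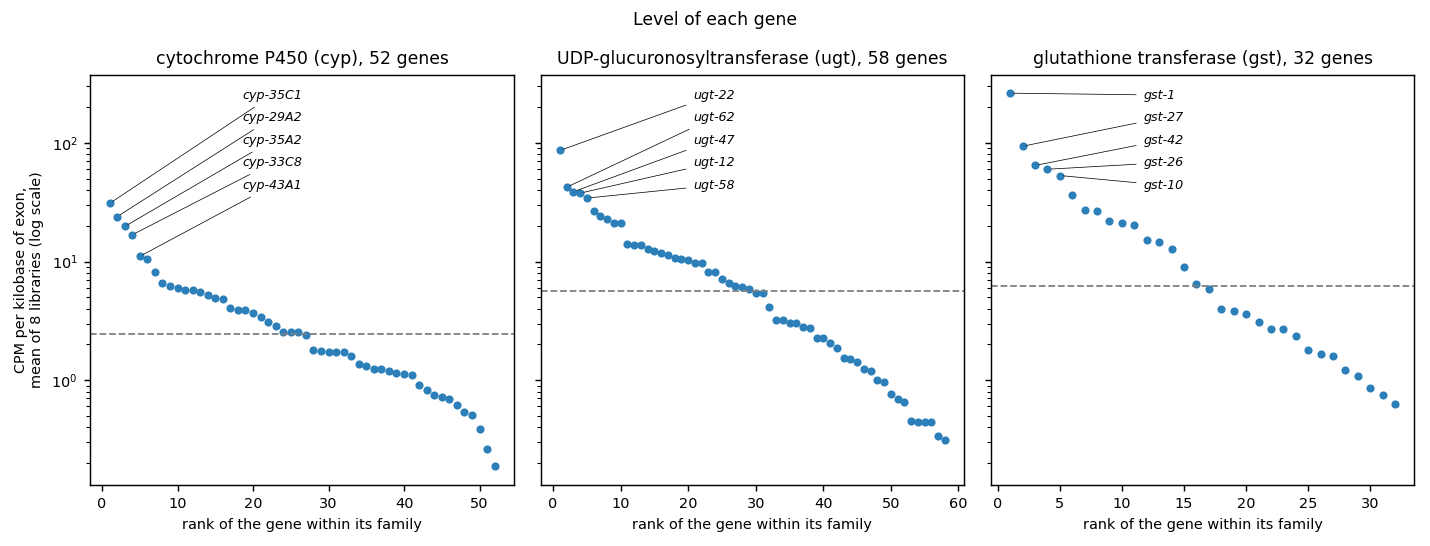
CPM per kilobase of exon, averaged over 8 libraries (vertical axis, log scale), for each gene against its rank in its family, with 1 point a gene, a dashed line at the family's median, and the 5 highest genes named. The gst family reaches the highest level, 263 for *gst-1*, and the cyp family has the lowest median, 2.47.

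In *set-26* worms a small set of these genes was much more abundant, spread over all 3 families. Against N2, 7 of the 142 genes rose (*gst-24*, *ugt-62*, *ugt-19*, *cyp-33C8*, *cyp-14A1*, *cyp-14A4* and *cyp-14A5*) and 1 fell (*cyp-35C1*), which is 5.63% of the genes where 2.39% of all tested genes were called (0.975% higher and 1.42% lower). Over the 142 genes the median log2 fold change was 0.04, against 0.01 for all genes, and 73 were above 0.

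The glutathione transferase *gst-24*, one of the enzymes that act on hydroxynonenal, read 5.2 and 6.52 CPM in N2, 7.83 and 7.23 for *set-9*, 23.2 and 34.7 in *set-26*, and 22.8 and 21.3 in the double mutant. Every library carrying tm2467 was thus above all 4 libraries without it. Its log2 fold change in *set-26* against N2 was 2.31 (SE 0.23, adjusted p = 0.00747). The other 5 genes of its array gave log2 fold changes from 0.08 to 1.45 in *set-26*, none of which passed the test.

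Both UGT genes in this set were highest in the *set-26* single mutant. For *ugt-62* the libraries read 59.7 and 47.6 CPM in N2, 40.7 and 44.1 for *set-9*, 110 and 141 in *set-26*, and 67.3 and 62.3 in the double mutant, a log2 fold change of 1.22 in *set-26* (SE 0.16, adjusted p = 0.0161). For *ugt-19* they read 14 and 9.47, 10.9 and 10.5, 35 and 46.6, and 15.5 and 12.8, in the same order, a log2 fold change of 1.79 (SE 0.23, adjusted p = 0.0145). Its neighbour *ugt-20* was at 0.06 and did not pass the test.

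Among P450s, 3 of the 4 tested members of the *cyp-14A* subfamily rose. The gene *cyp-14A1* read 1.26 and 0.794 CPM in N2, 1.00 and 1.37 for *set-9*, 5.85 and 6.76 in *set-26*, and 2.54 and 1.63 in the double mutant, and its log2 fold change was 2.59 (SE 0.38, adjusted p = 0.0225). The gene *cyp-14A4*, also on chromosome X, had 8 and 5 reads in N2, 3 and 5 for *set-9*, 54 and 48 in *set-26* and 14 and 11 in the double mutant, with a log2 fold change of 3.11 (SE 0.52, adjusted p = 0.0311). Because *cyp-14A4* reached the minimum of 20 reads only in *set-26*, it was included only through the genotype where it was high. On chromosome V, *cyp-14A5* rose by 1.43 (SE 0.19, adjusted p = 0.0161), from 6.03 and 7.09 CPM in N2 to 15.3 and 20 for *set-26*. It also read 15.5 and 13.8 for *set-9* and 12.4 and 12.5 in the double mutant, so that both N2 libraries were below all 6 mutant libraries. The fourth, *cyp-14A2*, lies beside *cyp-14A1* and was at 0.16. The other P450 that rose was *cyp-33C8*, at 16.7 and 6.81 CPM in N2, 11.9 and 8.66 for *set-9*, 61.3 and 75.6 in *set-26*, and 23.1 and 20.1 in the double mutant, with a log2 fold change of 2.52 (SE 0.38, adjusted p = 0.0239). None of the 5 other tested *cyp-33C* genes was called in any comparison.

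The gene that fell, *cyp-35C1*, read 50.4 and 79.4 CPM in N2, 51.6 and 56.7 for *set-9*, 30.2 and 32.2 in *set-26*, and 39.7 and 39.3 in the double mutant, a log2 fold change of −1.05 (SE 0.20, adjusted p = 0.0428). Its relatives *cyp-35A2*, *cyp-35A3* and *cyp-35A4* also had both *set-26* libraries below the other 6, at −1.29, −0.84 and −1.23, without passing the test. Over all 142 genes, both *set-26* libraries were above the other 6 for 20 genes (14.1%, against 5.37% of all tested genes) and below them for 9 (6.34%, against 4.88%).

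**Figure D2:**
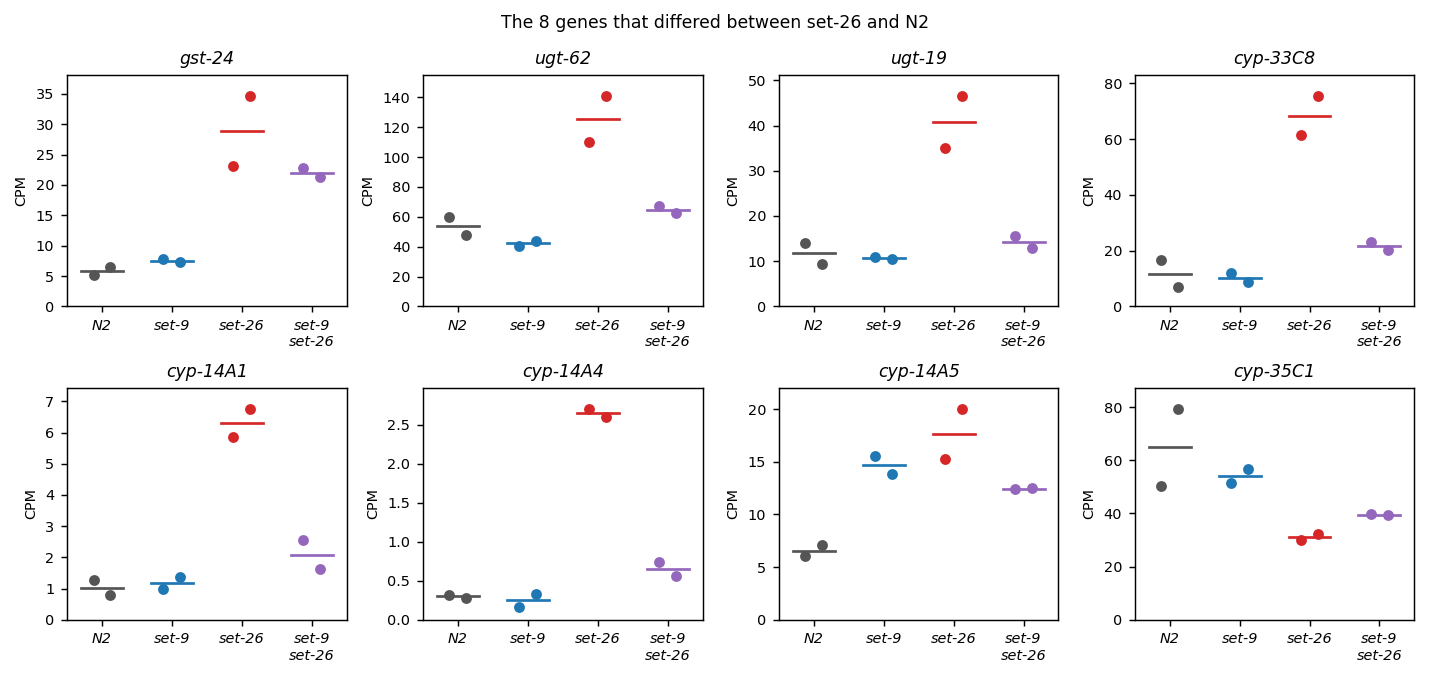
CPM of the 8 genes called between *set-26* and N2, with 1 point a library and a bar at the mean of the 2 libraries of a genotype, on a linear axis that starts at 0. For *gst-24* the double mutant stays near the *set-26* level (22.8 and 21.3 against 23.2 and 34.7), while for *ugt-62*, *ugt-19*, *cyp-33C8*, *cyp-14A1* and *cyp-14A4* it lies between *set-26* and N2 in its mean.

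These calls varied with the libraries used. The members called were 7 without N2 replicate 1, 2 without N2 replicate 2, 7 without *set-9* replicate 1 or without *set-9* replicate 2, 4 without *set-26* replicate 1, 1 without *set-26* replicate 2, and 5 without replicate 1 or without replicate 2 of the double mutant, while all genes called fell from 351 to between 20 and 281. The call of *gst-24* held in all 8 of these fits, those of *ugt-62* and *ugt-19* in 6, those of *cyp-14A1* and *cyp-14A5* in 5, that of *cyp-33C8* in 4, that of *cyp-14A4* in 2 and that of *cyp-35C1* in 1. No log2 fold change of these 8 genes changed sign.

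Upstream sequences are shown for 3 genes that rose in *set-26* and 2 that fell in the double mutant, all lying apart in the genome. They are the 250 bases before the annotated start of *gst-24* (chrII:13611367-13611616, minus strand), *cyp-14A4* (chrX:13284198-13284447, minus), *ugt-62* (chrIII:4540624-4540873, minus), *gst-41* (chrV:7399303-7399552, minus) and *ugt-58* (chrII:9586785-9587034, minus), read from the WBcel235 genome of RefSeq and written 5′ to 3′ along the gene. Capitals mark TGATAA, the core bound by intestinal GATA factors, and GTAAACA, bound by DAF-16, on either strand, and TGANNNNGC, the antioxidant response core, did not occur in these 5 windows.
gst-24: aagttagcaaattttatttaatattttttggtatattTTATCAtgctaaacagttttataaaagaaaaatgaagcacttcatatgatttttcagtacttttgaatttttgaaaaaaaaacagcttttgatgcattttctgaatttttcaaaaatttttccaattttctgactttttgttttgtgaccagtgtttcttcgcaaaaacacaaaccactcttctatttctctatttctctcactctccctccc
cyp-14A4: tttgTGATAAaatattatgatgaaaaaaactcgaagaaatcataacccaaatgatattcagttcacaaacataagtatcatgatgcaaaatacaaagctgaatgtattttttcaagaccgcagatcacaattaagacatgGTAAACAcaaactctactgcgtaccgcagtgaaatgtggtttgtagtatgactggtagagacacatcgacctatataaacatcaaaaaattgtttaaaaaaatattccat
ugt-62: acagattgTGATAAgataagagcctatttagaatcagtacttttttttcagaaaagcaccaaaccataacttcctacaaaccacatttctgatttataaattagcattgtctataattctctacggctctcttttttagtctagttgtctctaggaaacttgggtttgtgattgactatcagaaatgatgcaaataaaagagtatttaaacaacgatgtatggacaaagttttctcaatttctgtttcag
gst-41: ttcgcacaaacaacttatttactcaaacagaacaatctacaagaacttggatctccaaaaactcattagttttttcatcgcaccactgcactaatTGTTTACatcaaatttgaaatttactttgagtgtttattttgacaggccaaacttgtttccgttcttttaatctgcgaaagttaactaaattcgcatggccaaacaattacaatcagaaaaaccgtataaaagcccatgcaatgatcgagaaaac
ugt-58: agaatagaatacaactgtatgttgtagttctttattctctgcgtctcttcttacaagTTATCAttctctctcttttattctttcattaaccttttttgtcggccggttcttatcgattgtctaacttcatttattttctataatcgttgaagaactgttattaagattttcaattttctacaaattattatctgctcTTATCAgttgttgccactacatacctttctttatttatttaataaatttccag
In windows of 250 bases before to 50 after the start, TGATAA was found on either strand in 54.9% of the 142 genes, against 30.6% of 13808 tested protein-coding genes. The share was 69% for ugt, 50% for cyp and 37.5% for gst genes. It was present in 4 of the 7 genes that rose in *set-26*, in 6 of the 20 (30%) called below the additive sum of both single mutant changes in the double mutant, and in 5 of the 13 ugt genes (38.5%) among these. GTAAACA was found in 6.34% against 5.07%, and TGANNNNGC in 25.4% against 27.8%. Of the 7 genes that rose in *set-26*, 1 held GTAAACA (*cyp-14A4*), as did 1 of the 20 below the additive sum (*gst-41*). Both are among the 5 genes shown, which were picked by hand, so those 5 do not stand for the rest. A match describes these letters and is not a measured binding site.

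In *set-9* worms none of the 142 genes was called against N2, where 0.464% of all tested genes were (0.198% higher and 0.266% lower). At an unadjusted p under 0.05 there were 18 of 142 (12.7%), against 13.3% of all genes. The Wald test of DESeq2 called 4 members, all higher in *set-9*, and 3.42% of all genes, and edgeR's exact test called 7, all higher, and 4.43% of all genes. The smallest p-values in each family belonged to *cyp-14A5* (log2 fold change 1.16, SE 0.19, adjusted p = 0.0557), *ugt-53* (1.05, SE 0.18, adjusted p = 0.0557) and *gst-20* (0.60, SE 0.15, adjusted p = 0.137) in the edgeR test. For *ugt-53* the libraries read 7.05 and 6.07 CPM in N2 and 14.6 and 12.7 for *set-9*, with the *set-26* libraries at 8.56 and 9.41 and the double mutant at 7.68 and 7.95, so *set-9* stood above all the others. The same held for 22 of the 142 genes (15.5%, against 6.63% of all genes), of which 14 were ugt genes, among them *ugt-12*, *ugt-22*, *ugt-26* and *ugt-58*. Summed over the 58 ugt genes, the level was 1240 and 1254 CPM in *set-9*, above the other 6 libraries.

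The direct comparison of the single mutants named no further gene. Against *set-9*, 6 of the 142 genes rose in *set-26* and none fell, where 0.695% of all genes were called (0.443% higher and 0.252% lower), and all 6 were among the 7 that rose against N2, of which *cyp-14A5* was not called here. Their log2 fold changes were 3.42 for *cyp-14A4*, 2.73 for *cyp-33C8*, 2.41 for *cyp-14A1*, 1.94 for *gst-24*, 1.93 for *ugt-19* and 1.57 for *ugt-62*, with adjusted p from 0.0178 to 0.049. Both comparisons use the same *set-26* libraries. The members called were 4 when the one or the other N2 library was left out, 2 without *set-26* replicate 1, and 0 without *set-26* replicate 2 or any 1 of the *set-9* and double mutant libraries. All genes called fell from 102 to between 0 and 59 in these fits.

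In the double mutant more of these genes fell than rose, as was also the case over all tested genes. Against N2, 11 genes (7.75%) fell and 5 (3.52%) rose, 11.3% of the 142 genes where 10.3% of all tested genes were called (4.42% higher and 5.91% lower), so the share was near the background. By family 7 ugt genes fell and 2 rose, 2 cyp genes fell and 1 rose, and 2 gst genes fell and 2 rose. The median log2 fold change was −0.14 over the 142 genes, −0.16 for ugt, −0.12 for cyp and −0.09 for gst genes, against 0.01 for all genes.

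The UGT genes that fell were *ugt-57*, *ugt-63*, *ugt-65*, *ugt-12*, *ugt-16*, *ugt-58* and *ugt-23*. Of these *ugt-57* fell most, by 1.73 on the log2 scale (SE 0.20, adjusted p = 0.00533), from 27.1 and 26.2 CPM in N2 to 8.37 and 7.7, with 24.1 and 28.9 for *set-9* and 16.5 and 23.5 for *set-26*. The abundant *ugt-12* fell by 1.06 (SE 0.13, adjusted p = 0.00597) and read 72.5 and 74 CPM in N2, 84.4 and 86 for *set-9*, 63.7 and 61.4 in *set-26* and 39.2 and 30.8 in the double mutant. For *ugt-58* the corresponding values were 64.6 and 66.2, 71.1 and 81.4, 53.4 and 64.5, and 36.6 and 33.8, and it fell by 0.89 (SE 0.13, adjusted p = 0.01). In all 3 genes both double mutant libraries were below the other 6. The log2 fold change of *ugt-63* was −1.65 (SE 0.26, adjusted p = 0.0129), that of *ugt-65* was −1.18 (SE 0.25, adjusted p = 0.0278), that of *ugt-16* was −0.92 and that of *ugt-23* was −0.53.

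Among the other families, *cyp-13A2* fell by 1.41 (SE 0.22, adjusted p = 0.0121) and had a different pattern, since it read 8.15 and 8.05 CPM in N2, 14.6 and 20.6 for *set-9*, 13.9 and 16.5 in *set-26*, and 2.91 and 3.16 in the double mutant. It was thus above N2 in both single mutants, without passing the test, and below N2 in the double mutant. The same order was seen for *gst-41*, with 60 and 32 reads in N2, 70 and 76 for *set-9*, 69 and 73 in *set-26* and 17 and 13 in the double mutant, and a log2 fold change of −1.42 in the double mutant (SE 0.34, adjusted p = 0.0407). The other genes that fell were *gst-28*, by 0.82 (SE 0.15, adjusted p = 0.0199), and *cyp-25A2*, by 0.76 (SE 0.18, adjusted p = 0.0394). Both N2 libraries of *cyp-25A2* were above all 6 mutant libraries, and 32.9% of its 50-base stretches occurred elsewhere in the genome.

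Of the 5 genes that rose in the double mutant, *gst-24* (log2 fold change 1.92, SE 0.23, adjusted p = 0.00536) and *cyp-14A5* (0.93, SE 0.19, adjusted p = 0.0264) had also risen in *set-26*, and both comparisons use the N2 libraries. The gene *gst-4*, whose promoter is a standard reporter of SKN-1 activity, read 14.1 and 14.4 CPM in N2, 13.1 and 14.1 for *set-9*, 21.8 and 20.9 in *set-26*, and 33.6 and 23.1 in the double mutant. Its log2 fold change was 1.00 in the double mutant (SE 0.19, adjusted p = 0.0208) and 0.59 in *set-26*, which did not pass the test, and its exons overlap those of *dhs-12* on the same strand. For *ugt-50* the change was 0.49 (SE 0.11, adjusted p = 0.0378), and its exons overlap *nhr-26* on the other strand. The fifth, *ugt-43*, had 0 reads in both N2 libraries, 2 and 2 for *set-9*, 2 and 6 in *set-26*, and 57 and 22 in the double mutant, which was at least 14.4-fold higher than a floor of 3 reads in each N2 library (adjusted p = 0.0194).

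The count of 16 became 10 without N2 replicate 1, 7 without N2 replicate 2, 13 without any 1 library of the single mutants, 4 without double mutant replicate 1 and 3 without its replicate 2, while all genes called fell from 1516 to between 134 and 1411. The calls of *gst-24* and *ugt-12* held in all 8 of these fits, that of *ugt-57* in 7 and those of *cyp-13A2*, *ugt-63* and *gst-28* in 6. Those of *cyp-25A2*, *ugt-50* and *gst-41* held in none.

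**Figure D3:**
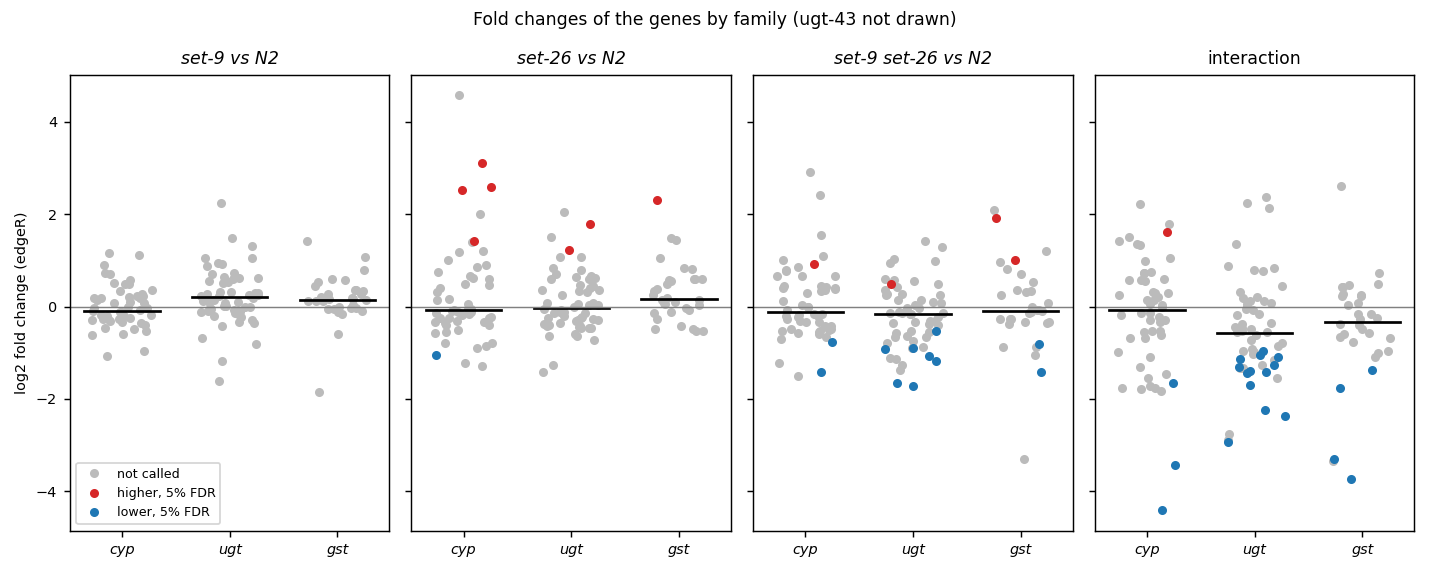
Log2 fold change from the edgeR fit (vertical axis) of each gene by family, with 1 point a gene, grey where not called, red where called higher and blue where called lower, and a bar at the family's median. The interaction panel is the change in the double mutant less the sum of both single mutant changes, where 13 ugt genes lie below 0 as called and the ugt median is −0.58. *ugt-43* is left out because it had 0 reads in N2.

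Against each single mutant, most of the genes that fell in the double mutant were UGT genes. Against *set-9*, 27 of the 142 genes (19%) fell and 9 (6.34%) rose. These were 25.4% of the genes, where 25.9% of all genes were called (14.2% higher and 11.7% lower), so the share called was near the background. The ugt family had 17 of the falls and 5 of the rises among its 58 genes (37.9% called, median −0.49). Against *set-26*, 20 (14.1%) fell and 3 (2.11%) rose, which is 16.2% of the genes where 10.4% of all genes were called (5.12% higher and 5.24% lower). Among these, ugt genes made up 11 of the falls and 1 of the rises (20.7% called, median −0.22). In both comparisons, which share the double mutant libraries, 8 ugt, 3 gst and 2 cyp genes were lower in the double mutant than in each single mutant (9.15%, against 4.5% of all tested genes). Of these 13, 7 were also lower than in N2 (4.93%, against 2.71%), namely *ugt-12*, *ugt-57*, *ugt-58*, *ugt-63*, *ugt-65*, *gst-41* and *cyp-13A2*. Over all 142 genes, both double mutant libraries were below the other 6 for 32 genes (22.5%, against 16.8% of all tested genes), including 18 of the 58 ugt genes (31%), and above them for 17 (12%, against 20%). The other such counts were 5 with both N2 libraries above the rest (3.52%, against 4.3%), 10 with both below (7.04%, against 3.74%) and 4 with both *set-9* libraries below (2.82%, against 8.1%).

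By family, the largest falls against *set-9* included −2.53 for *cyp-13A2* (SE 0.22, adjusted p = 0.00118), −2.49 for *gst-41* (SE 0.34, adjusted p = 0.0038), −2.40 for *cyp-34A1*, −2.42 for *ugt-32*, −2.30 for *gst-14* and −1.78 for *cyp-13A10*. Next to these were −1.73 for *ugt-63*, −1.72 for *ugt-57* (SE 0.20, adjusted p = 0.00235) and −1.02 for *gst-28*. The 9 rises were *ugt-43*, *ugt-62* (0.61), *ugt-50* (0.48), 1.99 for *ugt-52*, 1.55 for *gst-24*, 1.39 for *ugt-39*, 1.06 for *gst-4*, 0.79 for *cyp-31A3* and 0.76 for *cyp-35A3*. Of these, *ugt-43* had 2 and 2 reads in *set-9* and reached the minimum only in the double mutant. Against *set-26* the largest falls of each family were −3.51 for *cyp-34A1*, −2.33 for *gst-14*, −2.32 for *cyp-13A2*, −2.23 for *gst-41*, −2.01 for *cyp-14A4*, −1.75 for *ugt-11*, −1.73 for *ugt-2*, −1.52 for *ugt-19* and −0.77 for *gst-20*. The 3 rises were 1.21 for *cyp-35A3*, 0.76 for *ugt-41* and 0.75 for *gst-10*. Of the 7 genes that had risen in *set-26*, 5 were lower in the double mutant than in *set-26* (*ugt-62*, *ugt-19*, *cyp-33C8*, *cyp-14A1* and *cyp-14A4*). The 7 genes were picked as high in the *set-26* libraries, which are also the reference here, and this alone favours a fall. The change of *gst-24* from *set-26* to the double mutant was −0.39 (SE 0.21, adjusted p = 0.26), and that of *cyp-14A5* was −0.50 (SE 0.18, adjusted p = 0.113).

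Left-out libraries moved these counts widely. Against *set-9* the count of 36 became 37 without the one or the other N2 library, 33 and 35 without *set-26* replicates 1 and 2, 23 and 17 without *set-9* replicates 1 and 2, and 16 and 14 without double mutant replicates 1 and 2, while all genes called went from 3800 to between 1394 and 3811. Against *set-26* the count of 23 stayed 23 without the one or the other N2 library, became 22 without the one or the other *set-9* library, 11 and 1 without *set-26* replicates 1 and 2, and 3 and 1 without double mutant replicates 1 and 2, while all genes called went from 1520 to between 88 and 1773. The falls of *cyp-13A2*, *gst-41*, *ugt-57*, *ugt-63* and *gst-28* and the rises of *gst-24* and *gst-4* against *set-9*, and the fall of *cyp-13A2* against *set-26*, were called in all 8 of these fits.

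Whether the double mutant was what the single mutants would add up to was tested by the interaction, the change in the double mutant less the sum of both single mutant changes on the log2 scale. It was called for 21 of the 142 genes (14.8%), where 13.9% of all genes were called. Of these, 20 lay below the additive value and 1 above, while of all genes 5.6% lay below it and 8.27% above. The 20 were 13 ugt genes (22.4% of that family), 4 gst genes and 3 cyp genes, and the median interaction was −0.58 over ugt genes, −0.33 over gst genes and −0.07 over cyp genes, against −0.0017 over all genes.

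The largest were *cyp-34A1* (−4.40, SE 0.97, adjusted p = 0.0274), *gst-14* (−3.74, SE 0.73, adjusted p = 0.0207), *cyp-13A2* (−3.44, SE 0.30, adjusted p = 0.00163) and *gst-41* (−3.30, SE 0.46, adjusted p = 0.00798). The first of these rested on few reads, 11 and 14 in N2, 15 and 22 for *set-9*, 63 and 32 in *set-26* and 6 and 2 in the double mutant. For *gst-14* they were 35 and 9, 45 and 41, 57 and 45, and 12 and 8. In all 4 genes the single mutants were at or above N2 and the double mutant was below both single mutants.

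Among UGT genes the largest were *ugt-55* (−2.92, SE 0.63, adjusted p = 0.0258), *ugt-2* (−2.37, SE 0.39, adjusted p = 0.0132) and *ugt-11* (−2.24, SE 0.54, adjusted p = 0.0355). For *ugt-2* the libraries read 12.3 and 8.34 CPM in N2, 15.4 and 16.8 for *set-9*, 20.4 and 23 in *set-26*, and 8.16 and 4.89 in the double mutant, so the double mutant was the lowest genotype and *set-26* the highest. The gene *ugt-55*, whose exons overlap T04H1.12 on the same strand, had a double mutant near N2 (1.27 and 0.866 CPM against 0.945 and 1.08) and both single mutants above it (2.83 and 2.87 for *set-9*, 1.90 and 3.89 in *set-26*). Of the rest, *gst-38* was at −1.77, *gst-20* at −1.37 and *cyp-14A5* at −1.67 (SE 0.26, adjusted p = 0.0122), the last with all 6 mutant libraries above N2. The one gene above the additive value was *cyp-35A3* (1.61, SE 0.33, adjusted p = 0.0231), which read 14.5 and 22.4 CPM in N2, 13 and 15 for *set-9*, 11.4 and 9.14 in *set-26*, and 25.5 and 21.9 in the double mutant.

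The count of 21 became 20 and 13 without N2 replicates 1 and 2, 18 and 8 without *set-9* replicates 1 and 2, 15 and 5 without *set-26* replicates 1 and 2, and 6 and 4 without double mutant replicates 1 and 2, and all genes called fell from 2034 to between 332 and 1856. The interactions of *cyp-13A2*, *gst-41* and *ugt-12* were called in all 8 of these fits and those of *ugt-2* and *gst-20* in 7. Those of *ugt-28* and *ugt-31* were called in none. That of *cyp-14A5* was called in 6, those of *gst-14* and *cyp-35A3* in 4, that of *ugt-55* in 3, and those of *cyp-34A1*, *ugt-11* and *gst-38* in 2.

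**Figure D4:**
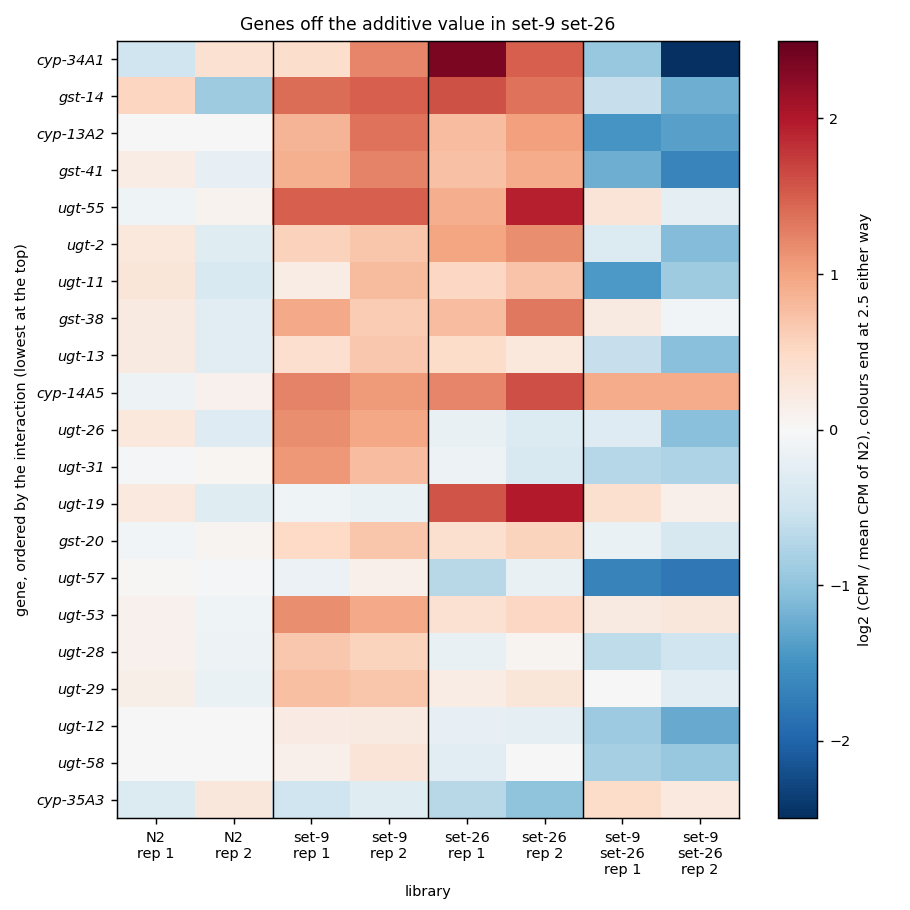
Heat map of log2 CPM relative to the mean of N2 for the 21 genes with a called interaction (rows) in the 8 libraries (columns), red above N2 and blue below, with colours ending at 2.5 either way. Most rows are red in 1 or both single mutants and blue or pale in the double mutant, and *cyp-35A3* at the bottom has the reverse order.

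Neighbours in an array did not always move together. In the *ugt-12*, *ugt-11*, *ugt-9*, *ugt-8* and *ugt-13* array (chrV:4887165-4911399), 3 of 5 interactions were called, with a range from −2.89 for *ugt-9*, which was not called, to 0.31 and a median of −1.70. In the *ugt-26*, *ugt-28* and *ugt-25* array 2 of 3 were called (−1.44 to −0.86). In the gst array that holds *gst-24*, 2 of 6 interactions were called (*gst-14* and *gst-20*), with a range from −3.74 to 0.48, and *gst-24* alone was called against N2. In the array of *cyp-13A2*, *cyp-13A4*, *cyp-13A5*, *cyp-13A6* and *cyp-13A8* (chrII:9783384-9807569), all 5 interactions were below 0, from −3.44 to −0.53, and that of *cyp-13A2* alone was called. In the *gst-26*, *gst-27*, *gst-28*, *gst-29* and *gst-39* array none of the 5 was.

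Genes chosen for their known roles were mostly without a call, and none of the following passed the test against N2. The P450s *cyp-31A2* and *cyp-31A3*, required for the lipids of the eggshell, had log2 fold changes against N2 of −0.54 to 0.77 in the 3 mutants, and of the pair *cyp-31A3* alone was called once, against *set-9*. The P450s *cyp-29A3* and *cyp-33E2*, which make eicosanoids, ranged from −0.43 to 0.31. The mitochondrial P450 *cyp-44A1* ranged from −0.28 to −0.01, and *cyp-34A9*, a known DAF-16 target, from −0.18 to 0.47. The corresponding values were −0.53 to 0.14 for *cyp-36A1*, which acts downstream of HIF-1 and was called lower in the double mutant than in *set-9* (−0.67, adjusted p = 0.0227), −0.25 to −0.21 for *cyp-37A1*, and −0.97 to 0.03 for *cyp-42A1*. Those of *gst-5* were −0.88 to −0.52 and those of *gst-7* were −0.09 to 0.26.

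Among the genes that act around these enzymes, the calls against N2 were in export pumps. Of 15 regulators, including *skn-1*, *wdr-23*, *pmk-1*, *nhr-8*, *nhr-49*, *nhr-86*, *ahr-1*, *daf-16* and *elt-2*, none was called against N2 in any mutant. Against *set-9*, *pmk-1* (−0.72, SE 0.17, adjusted p = 0.0191) and *mdt-15* (−0.32, SE 0.09, adjusted p = 0.0345) fell in the double mutant, and *pmk-1* had an interaction of −0.95 (SE 0.24, adjusted p = 0.0389). For *skn-1* the log2 fold changes were −0.01 in *set-9*, 0.06 in *set-26* and 0.02 in the double mutant. The reductase gene *emb-8* (−0.27 to −0.09) and the hormone P450 *daf-9* (−0.29 to 0.79) were not called against N2, and *daf-9* had an interaction of −1.82 (SE 0.45, adjusted p = 0.0373). No other glutathione enzyme was called against N2 among the 6 tested, which include *gcs-1* for glutathione synthesis. The UDP-glucose dehydrogenase *sqv-4*, which makes a UDP-sugar, was not called against N2 (−0.43 to −0.03) and had an interaction of 0.81 (SE 0.19, adjusted p = 0.0351).

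Of 21 tested pgp and mrp genes, 3 rose in *set-26* (*pgp-8*, *pgp-9* and *pgp-14*), where 0.975% of all tested genes rose. In the double mutant *pgp-8* rose and *pgp-1*, *pgp-10* and *pgp-14* fell, where 4.42% of all tested genes rose and 5.91% fell. Of the interactions 6 were called, all below the additive value, where 5.6% of all genes were called below it. The gene *pgp-8* was at 0 CPM in both N2 libraries, 3.72 and 0 for *set-9*, 22.2 and 27.5 in *set-26* and 22.5 and 21.4 in the double mutant. For *pgp-14* the libraries read 37.4 and 26.8 CPM in N2, 57.9 and 54.8 for *set-9*, 67.3 and 56.7 in *set-26*, and 15.8 and 14.2 in the double mutant, with log2 fold changes of 0.95 in *set-26* (SE 0.18, adjusted p = 0.0399) and −1.10 in the double mutant (SE 0.18, adjusted p = 0.0138). For *pgp-9* they read 23.4 and 22.3, 31.6 and 29.2, 49.9 and 76.3, and 15.8 and 20.1, and it rose by 1.46 in *set-26* (SE 0.21, adjusted p = 0.0225). Both pumps were lowest in the double mutant, and for *pgp-14* the *set-9* and *set-26* libraries overlapped.

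Markers of tissues and stage moved with the genotypes. The intestinal markers (9 of 10 listed were tested, none at 0 in a library) summed to 12509 and 12569 CPM in N2, 13751 and 14569 for *set-9*, 10901 and 11388 in *set-26*, and 6934 and 7728 in the double mutant. Most of each sum was *asp-1*, with 8997 and 8581 CPM in N2 and 4963 and 5383 in the double mutant. In the double mutant 5 of the 9 markers fell against N2 (*act-5*, *asp-1*, *cpr-1*, *ifb-2* and *vha-6*). Not called there were *elt-2* (−0.33) and *mtl-2* (−0.17), below N2, and *ges-1* (0.37) and *elt-7* (0.17), above it. In *set-26* *cpr-1* and *vha-6* fell. Of all tested genes, 5.91% fell in the double mutant and 1.42% in *set-26*, against N2. The ugt genes summed to 1133 and 1103 CPM in N2, 1240 and 1254 for *set-9*, 1103 and 1157 in *set-26*, and 1028 and 884 in the double mutant, so the double mutant was lowest and *set-9* highest in both sums. The cyp sums lay between 364 and 425 CPM and the gst sums between 519 and 639, with overlap between the genotypes. The part of the intestinal markers in the fall of the ugt genes was not tested.

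The 10 genes of the molting cycle, none at 0, summed to 11815 and 16172 CPM in N2, 5392 and 7061 for *set-9*, 5214 and 5710 in *set-26*, and 8933 and 8922 in the double mutant, and 3 fell in *set-9*, 8 in *set-26* and 4 in the double mutant. Yolk protein genes summed to 13936 and 5864, 5519 and 1913, 1112 and 306, and 9331 and 6190, in the same order, and were thus lowest in *set-26*. The 9 sperm markers summed to between 60.3 and 178 CPM outside the double mutant and to 273 and 290 in it, and 2 rose there against N2. Of 4 markers of the excretory cell, *aqp-8* and *vha-8* fell in the double mutant against N2. Not called there were *clh-3* (0.28) and *exc-5* (−0.37). None of the 9 germline markers was called in any of the 7 comparisons. Of 7 hypodermal markers *elt-3* and *nhr-23* fell in the double mutant against N2. Without a call, *rol-6* (0.38), *sqt-3* (0.37) and *lin-26* (0.14) were above N2 and *dpy-7* (−0.89) and *elt-1* (−0.36) below it. None of 7 oocyte markers was called against N2. Over all tested genes, 0.266% fell in *set-9*, 1.42% in *set-26* and 5.91% in the double mutant against N2. In the double mutant 4.42% rose. The part of the tissue and stage markers in the values above was not tested.

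**Figure D5:**
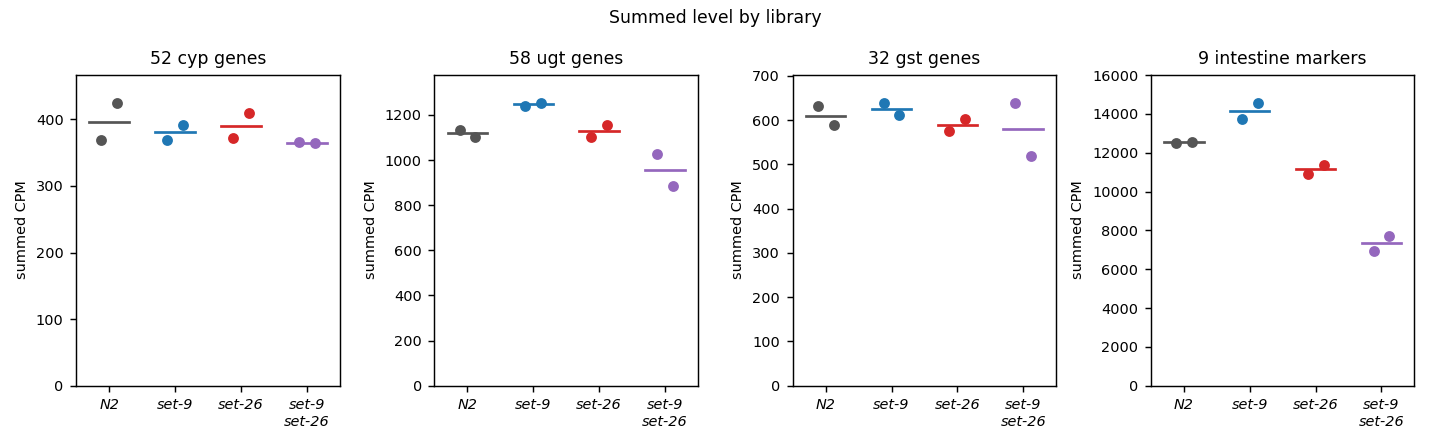
CPM summed over the cyp, ugt and gst genes and over 9 intestinal markers in each library, with 1 point a library, a bar at the mean of the 2 libraries of a genotype, and axes that start at 0. The ugt sum is lowest in the double mutant (1028 and 884) and highest in *set-9* (1240 and 1254), as is the sum of the intestinal markers (6934 and 7728, and 13751 and 14569). Most of the intestinal sum is *asp-1*.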

How the data were processed

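Estimated counts per gene were deposited by the authors in 1 table of 8 libraries. According to the study's methods, reads were trimmed, matches to ribosomal and transfer RNA were removed with Bowtie, and the rest was aligned with TopHat2 to the WS250 release and counted by Cufflinks. Of the deposited values above 0, 52.3% were whole, and all were rounded to whole numbers. Left out were 93 landmark entries that name no gene, worth 0.22% to 0.278% of gene reads. Genes with 20 reads in at least 1 library were kept, in the table of all genes as among those described.

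Libraries were scaled by TMM and fitted with edgeR 4.0.16 in R 4.3.3 on 8 libraries with 1 mean per genotype, which leaves 4 residual degrees of freedom, and its quasi-likelihood test was adjusted by Benjamini-Hochberg over 14667 genes. Standard errors are the log2 fold change divided by the square root of F. Alternatives were other scalings, filters and tests (DESeq2 1.42.0), fits on the compared libraries alone, a replicate block, a 2-fold limit and leaving out each library. The scripts were tested on simulated counts.

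Named genes were the 5 most abundant per kilobase of each family, every call in comparisons of the single mutants, the largest changes per family in the others, the smallest p where a family had no call, genes with a known role, and arrays. Of the known-role genes *cyp-13A7* and *cyp-35B1* were below the minimum. Other genes in the text were chosen after their values were seen. The members and lists were chosen with earlier results of these data known. Gene positions came from the Ensembl annotation and sequence from the RefSeq genome, both of WBcel235. A planned comparison of protein sequences was replaced by the search for shared 50-base stretches of exon. Chromatin immunoprecipitation data and the level of *set-26* itself were not analysed here. Intervals of counting error are not given, since 2 libraries a genotype limit the precision.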

Additional observations from a re-analysis of the deposited data

Results flagged for a closer look

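For 21 genes the effect of losing *set-26* differed between worms with and without the *set-9* mutation, by the edgeR test of the interaction, which is 14.8% of the genes described where 13.9% of all tested genes were called. The values are the log2 change that *set-26* loss made in the *set-9* background less the one it made in the wild-type background. They were −4.40 for *cyp-34A1*, −3.74 for *gst-14*, −3.44 for *cyp-13A2*, −3.30 for *gst-41*, −2.92 for *ugt-55*, −2.37 for *ugt-2*, −2.24 for *ugt-11* and −1.77 for *gst-38*. Next came −1.70 for *ugt-13*, −1.67 for *cyp-14A5*, −1.44 for *ugt-26*, −1.42 for *ugt-31*, −1.38 for *ugt-19*, −1.37 for *gst-20* and −1.31 for *ugt-57*. The smallest were −1.25 for *ugt-53*, −1.13 for *ugt-28*, −1.09 for *ugt-29*, −1.06 for *ugt-12* and −0.967 for *ugt-58*, and that of *cyp-35A3* was 1.61. Of these, *cyp-13A2*, *gst-41* and *ugt-12* were called whichever library was left out, and *ugt-28* and *ugt-31* in none of these 8 fits. All 21 share the same 8 libraries.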

How the results depend on the processing

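The 68 named results, 65 of them calls, were followed under all alternatives but the exact test and the 2-fold limit (58 with the compared libraries alone, 45 with 20 reads in every library), and none of those followed changed direction. DESeq2's size factors, upper quartile scaling and edgeR's own filter kept 63 or 64 of the 65 calls. Of members called, *set-9* against N2 went from 0 to 4 with no filter, 2 with 20 reads in every library, 4 with DESeq2's Wald test and 7 with edgeR's exact test, where 3.18%, 0.972%, 3.42% and 4.43% of all genes were called. Set-26 against N2 went from 8 to 14 with no filter (4.22% of all genes), 19 with the exact test (6.31%) and 0 when these libraries were fitted alone, a fit with fewer samples that called 15 of all genes. Set-26 against *set-9* went from 6 to 16 with no filter (2.55%), 11 with DESeq2 (3.13%), 15 with the exact test (3.98%) and 0 when fitted alone, where 0 of all genes were called. A 2-fold limit left 8 members in the double mutant against N2 and 23 against *set-9*. The share of all tested genes under that limit was not counted, so no background can be set beside these counts. For the double mutant against *set-26*, the exact test called 36 members (18% of all genes). With 1 library left out, the members called ranged from 0 to 1 and from 1 to 7 for *set-9* and *set-26* against N2, 3 to 13 for the double mutant against N2, 0 to 4 between the single mutants, 14 to 37 and 1 to 23 for the double mutant against *set-9* and *set-26*, and 4 to 20 for the interaction. In such fits the lone library of a genotype is assumed to vary like the others. Same-numbered libraries deviated together with correlations of 0.0464 to 0.205 over all genes, so that the numbers were not taken as pairs. With a replicate block the members called were 4, 12 and 21 against N2 for *set-9*, *set-26* and the double mutant (1.34%, 4.92% and 16.6% of all genes), 8 between the single mutants (2.1%), 41 and 27 for the double mutant against *set-9* and *set-26* (30.4% and 17.2%), and 28 for the interaction (19.6%), and 63 of the 65 calls were kept. Why the counts moved was not tested.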
